A study of Homo sapiens with 8 samples.

Results

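The 7 MAP kinase kinase genes, MAP2K1 to MAP2K7, and 3 genes of the p38 MAP kinases, MAPK11, MAPK13 and MAPK14, were followed in LM2 cells, as 10 of the 58688 genes counted. They were picked by symbol as a family, and the choice was made knowing that MAP2K6 was higher and MAP2K3 lower with Ponatinib, so their values with the drug are a description and carry no test. LM2 is a lung-metastatic line derived from the triple negative breast cancer line MDA-MB-231 and was grown in DMEM with serum. The RNA-seq set held 8 libraries in 2 experiments. In the first, cells received the vehicle DMSO (n = 2) or Ponatinib, a multi-kinase inhibitor of ABL and other tyrosine kinases, at 1 µmol/L for 6 h (n = 2). In the second, stable lines made with lentivirus carried a scrambled shRNA (shCtrl), ABL1 shRNA, ABL2 shRNA or both (1 library each), to ask what loss of ABL itself does.

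A MAP kinase kinase is the middle enzyme of a cascade. It is phosphorylated by an upstream kinase and in turn phosphorylates a threonine and a tyrosine in the activation loop of its MAP kinase. MAP2K1 and MAP2K2 (MEK1 and MEK2) activate ERK, MAP2K5 activates ERK5, MAP2K4 and MAP2K7 activate JNK, and MAP2K3 and MAP2K6 (MKK3 and MKK6) activate p38, as MAP2K4 also can. MAPK14, MAPK11 and MAPK13 encode p38α, p38β and p38δ, kinases known for responses to stress and inflammatory cytokines. These enzymes are switched on and off by phosphorylation, which RNA-seq does not see.

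Total counts on genes ranged from 7568934 to 13010896 per library, so that 3 counts, the limit used for absence, correspond to 0.231 to 0.396 CPM (counts scaled to the library total). CPM values given here were normalized within each experiment. As a check of the labels, ABL1 had 190 CPM in shCtrl, 72.8 with its own shRNA and 109 with both, and ABL2 had 236, 93.5 and 148 CPM. LM2 identity was checked on marker genes. VIM, CD44, CAV1 and AXL together gave 2985 to 5442 CPM, CDH1 had 0 to 23 counts and PGR had 0 in all libraries. Other receptor and epithelial markers were present. In DMSO replicate 1, ERBB2 had 53.6, ESR1 0.883, EPCAM 10.4 and GATA3 7.59 CPM. Over the libraries, ESR1, PGR and ERBB2 together gave 54.5 to 67.2 CPM, and CDH1, GATA3 and EPCAM 13.8 to 20.8 CPM. Of 5 immune, endothelial and muscle markers, PTPRC, CD3E and CDH5 had at most 3 counts, whereas PECAM1 had 18 to 42 counts in the drug experiment and 233 to 499 in the shRNA lines. The remaining marker, MYH11, had 51 counts in DMSO replicate 1. The summed level of these 5 was 7.24 to 8.69 CPM with DMSO and 8.18 to 8.63 CPM with Ponatinib, against 23.4 CPM in shCtrl and 34.1 to 42.1 CPM in the ABL lines, and its part in the knockdown values was not tested. The experiments also stood apart in 68 genes that reached 100 counts throughout the drug experiment but had 0 in each shRNA library, none of them a MAP2K or p38 gene, so levels were compared within an experiment.

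Both p38-activating kinase genes lie on chromosome 17 (GRCh38), MAP2K3 at chr17:21284672-21315232 and MAP2K6 at chr17:69414697-69553865, on the plus strand. Their RefSeq promoters (GRCh38.p14) are shown because these 2 genes had the largest differences with Ponatinib. Each line gives the 250 bases before the first listed start, 5′ to 3′, at chr17:21284461-21284710 and chr17:69414447-69414696, and capitals mark the letters TGANTCA, the AP-1 motif bound by c-Jun with its partners.
MAP2K3: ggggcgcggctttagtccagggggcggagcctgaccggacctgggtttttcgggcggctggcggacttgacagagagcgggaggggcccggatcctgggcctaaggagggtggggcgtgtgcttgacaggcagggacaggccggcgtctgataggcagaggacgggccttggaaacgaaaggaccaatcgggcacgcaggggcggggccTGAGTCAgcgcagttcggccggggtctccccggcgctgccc
MAP2K6: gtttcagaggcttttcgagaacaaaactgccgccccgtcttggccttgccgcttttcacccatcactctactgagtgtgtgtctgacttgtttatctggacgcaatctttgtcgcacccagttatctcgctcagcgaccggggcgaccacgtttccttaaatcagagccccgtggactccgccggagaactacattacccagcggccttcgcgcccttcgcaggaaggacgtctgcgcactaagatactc
Among the 15 windows listed for the 10 genes, TGANTCA was present in 1, the MAP2K3 window, where it reads TGAGTCA from 41 to 35 bases before the RefSeq start. That window ends at 21284710, past the GENCODE v44 gene start at 21284672 given above. The marked letters lie across this GENCODE start, so their place relative to the start depends on the annotation. TGANTCA was present in 6.57% of all 35116 promoter windows of this length. No window of the 10 genes held TGACGTCA, the CREB and ATF motif (1.65% of all windows), or GTAAACA, the FOXO motif (2.98%), on either strand. The MAP2K3 window is richer in G and C (70.4%) than the MAP2K6 window (55.6%), and the median of all windows was 58.0%.

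MAP2K6 was low with DMSO, though above the limit used for absence, and higher with Ponatinib. Its normalized level was 0.795 and 1.52 CPM in the DMSO libraries and 20.2 and 24.7 CPM in the Ponatinib libraries, from raw counts of 9, 15, 213 and 190. Both Ponatinib libraries were far above both DMSO libraries. The mean was 22.4 ± 3.16 CPM with Ponatinib against 1.15 ± 0.510 CPM (SD, n = 2), a 19.4-fold difference (log2 fold change 4.28, SE 0.238), the sixth by size among the 16031 genes tested with edgeR. This rank carries no test, since MAP2K6 was chosen with its difference known and passed the filter on low counts only through its Ponatinib libraries. The few DMSO counts set the precision of the difference. The difference was 14.6-fold without DMSO replicate 1 and 27.6-fold without DMSO replicate 2. In RNA from a whole culture, more cells with the transcript and more transcript per cell cannot be told apart.

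MAP2K3, whose enzyme acts on the same p38 kinases, showed the opposite. It stood at 125 and 134 CPM with DMSO and at 66.1 and 64.3 CPM with Ponatinib, without overlap. The Ponatinib mean was 65.2 ± 1.30 CPM against 130 ± 6.07 CPM (SD, n = 2), that is 1.99-fold lower (log2 fold change -0.99, SE 0.070). This lies next to the 2-fold limit of the study's criterion for a differentially expressed gene (fold change over 2 with an unadjusted P under 0.05). Without DMSO replicate 1 the MAP2K3 fold change was 0.487, past that limit.

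**Figure D1:**
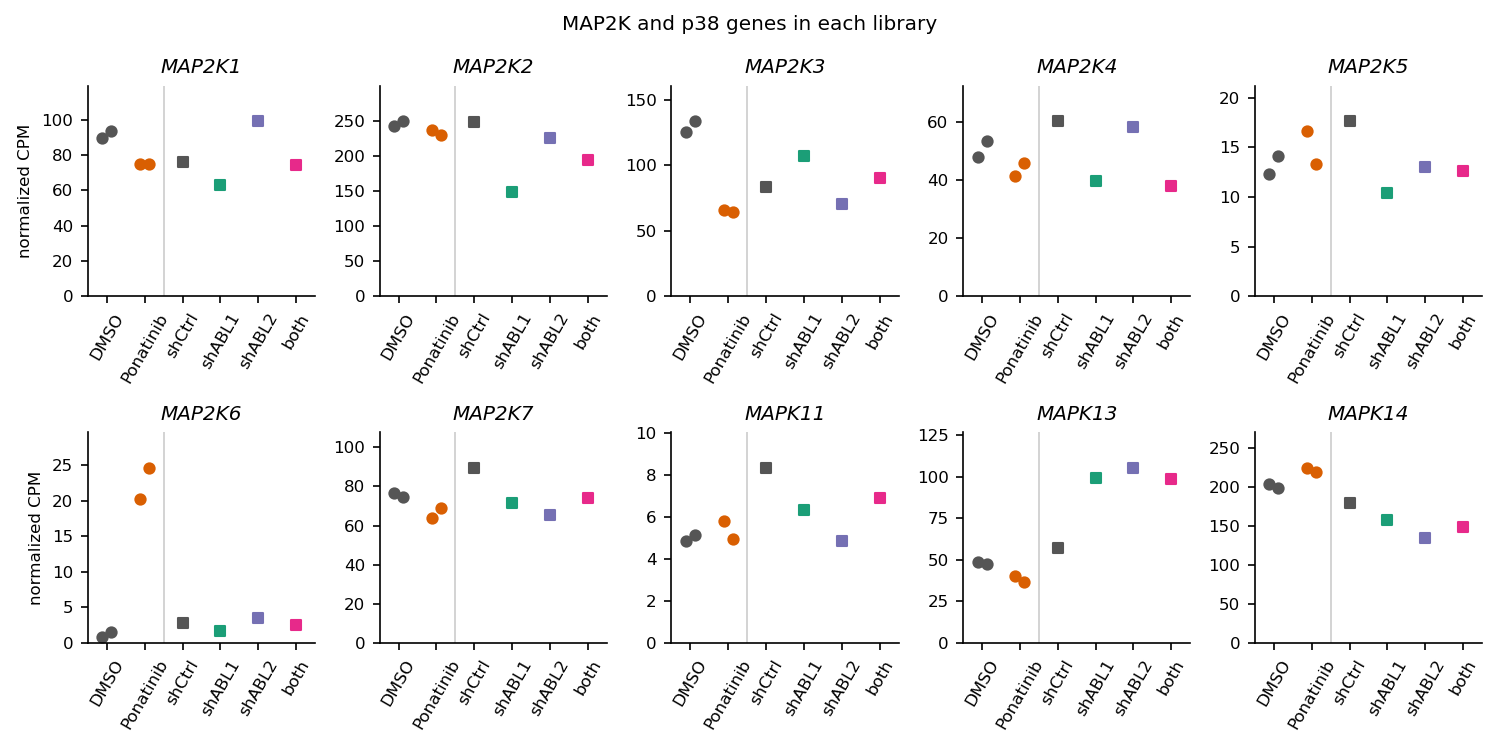
Normalized CPM (vertical axis, starting at 0, scaled per gene) of the 10 genes in each library; circles are the 2 DMSO and 2 Ponatinib libraries, squares the single libraries with shCtrl, ABL1 shRNA (shABL1), ABL2 shRNA (shABL2) and both. With Ponatinib, MAP2K6 is higher than with DMSO (20.2 and 24.7 CPM) and MAP2K3 lower (66.1 and 64.3 CPM), and MAPK13 is higher in the 3 ABL shRNA libraries (98.8 to 106 CPM) than in shCtrl.

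The ERK-activating kinases differed little. MAP2K1 had 89.8 and 93.6 CPM with DMSO and 75.2 and 74.9 CPM with Ponatinib (log2 fold change -0.29, SE 0.068), and MAP2K2 had 243 and 250 CPM against 237 and 229 CPM (-0.08, SE 0.060). Neither pair of groups overlapped. Exons of MAP2K1 overlap SNAPC5 on the opposite strand and those of MAP2K7 an unnamed gene, and reads of such stretches could not be told apart because the strand setting of the counting is not given in the sources used here.

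The JNK-activating kinases were both somewhat lower with the drug. MAP2K4 had 47.9 and 53.4 CPM with DMSO and 41.3 and 45.8 CPM with Ponatinib (-0.22, SE 0.089), and MAP2K7 had 76.9 and 74.5 CPM against 63.6 and 68.9 CPM (-0.20, SE 0.073). MAP2K5, the ERK5 activator, had 12.4 and 14.1 CPM against 16.7 and 13.4 CPM, so its groups overlapped (0.20, SE 0.147).

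The p38 kinase genes themselves differed less than MAP2K3 and MAP2K6. MAPK14, the main p38 gene in these cells, had 204 and 199 CPM with DMSO and 225 and 220 CPM with Ponatinib (log2 fold change 0.14, SE 0.060). MAPK13 had 48.4 and 47.5 CPM against 40.0 and 36.9 CPM (-0.31, SE 0.085). MAPK11 was low and overlapped, with 4.86 and 5.15 CPM against 5.78 and 4.93 CPM (0.12, SE 0.206), and without Ponatinib replicate 1 its sign changed (-0.0073). The fourth p38 gene, MAPK12, which was not among the 10, had 21.2 ± 0.0172 and 22.3 ± 0.0318 CPM (SD, n = 2).

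All 10 genes passed the filter on low counts, MAP2K6 only through its Ponatinib libraries. At an adjusted p under 0.05 (edgeR quasi-likelihood test, Benjamini-Hochberg), 4 of the 10 were called, MAP2K6 higher and MAP2K1, MAP2K3 and MAPK13 lower, where 30.7% of all genes tested were called. The MAPK13 call was lost with DESeq2 and without either DMSO replicate, and the MAP2K1 call without DMSO replicate 2, while MAP2K3 stayed called under every alternative and MAP2K6 under every one in which it was tested. Among the alternatives that left no library out, library totals in place of TMM also gave a call of MAPK14. With these, 2 were higher and 3 lower. In the same set of alternatives, MAP2K7 was called lower with at least 10 counts required in every sample and with all 8 samples in one fit. Without Ponatinib replicate 2 the log2 fold changes were -0.29 for MAP2K4, -0.25 for MAP2K7 and 0.15 for MAPK14. Past the 2-fold criterion was 1 of the 10, MAP2K6, against 5.48% of all genes. The groups did not overlap for 8 of the 10, against 64.9% of all genes. Nothing is read from these counts, or from the MAP2K3 and MAP2K6 calls that stayed, since the genes were chosen with this comparison known. The median log2 fold change of the 10 was -0.14 and that of all genes -0.0047. The replicates differed by 1.02- to 1.14-fold within DMSO, except MAP2K6 at 1.89-fold, and by 1.00- to 1.25-fold within Ponatinib.

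**Figure D2:**
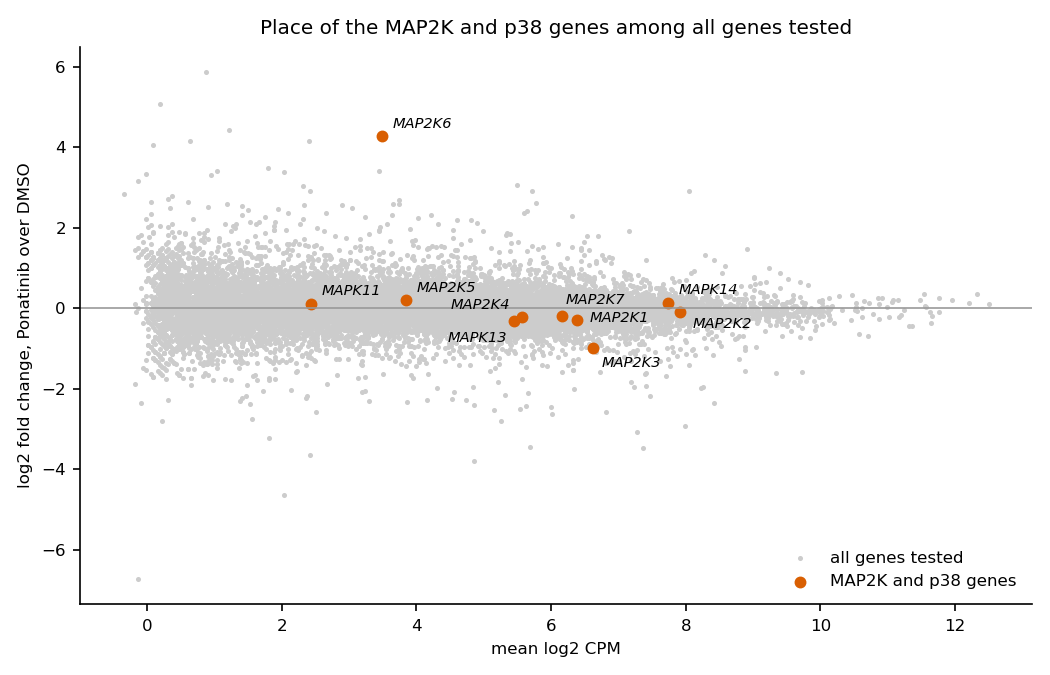
Mean log2 CPM over the 4 libraries (horizontal axis) against the log2 fold change of Ponatinib over DMSO (vertical axis) for all 16031 genes tested (grey) and the 10 MAP2K and p38 genes (orange). MAP2K6 (4.28) lies at the upper edge of the cloud, MAP2K3 (-0.99) on its lower side, and the other 8 lie between -0.31 and 0.20.

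Dividing by transcript length allows levels of different genes to be compared. The length used was that of the MANE Select transcript, the reference transcript of each gene in GENCODE v44, which need not be the form made in LM2 cells. Per kb, MAP2K2 had the highest level in all groups, with 141 to 145 CPM per kb with DMSO. MAP2K3 followed with 55.6 to 59.4 and MAPK14 with 47.2 to 48.4, then MAP2K1 with 35.3 to 36.8 and MAP2K7 with 22.1 to 22.8. MAP2K4 (12.7 to 14.1), MAPK13 (7.52 to 7.66), MAP2K5 (5.27 to 6.03), MAPK11 (2.01 to 2.13) and MAP2K6 (0.0593 to 0.113) came last. No neighbours in this order overlapped with DMSO. With Ponatinib, MAP2K3 stood at 28.5 to 29.3 CPM per kb, just under MAP2K1 (29.4 to 29.5), and MAP2K5 (5.70 to 7.12) overlapped MAPK13 (5.84 to 6.33).

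The MAP2K6 level per kb depends on the length used. Its MANE Select transcript has 13405 bases and its longest other coding transcript 1512. With the long form, MAP2K6 made up 0.107 and 0.190% of the summed MAP2K3 and MAP2K6 level per kb with DMSO and 4.89 and 6.07% with Ponatinib. With the short form, these shares were 0.937 and 1.66% against 31.3 and 36.4%. MAP2K6 came last with DMSO under either length (0.526 and 1.00 CPM per kb with the short form), while with Ponatinib the short form put it at 13.4 and 16.3 CPM per kb, above MAP2K4 (10.9 to 12.1). The summed level was lower with Ponatinib under either length, at 30.6 ± 0.339 against 57.6 ± 2.73 CPM per kb with the long form and 43.7 ± 1.51 against 58.2 ± 3.03 with the short form (SD, n = 2). The use of the short form was chosen after the values were seen.

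The makeup of the remaining activator pairs changed little. MAP2K2 made up 79.7 to 82.3% of the ERK-activating level per kb in the 4 libraries of the drug experiment, and MAP2K7 made up 60.9 to 64.3% of that of MAP2K4 and MAP2K7. Over all 7 MAP2K genes the summed level was 273 and 283 CPM per kb with DMSO and 234 and 231 with Ponatinib.

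With ABL knockdown, MAPK13 was the gene of the 10 with the highest ratio in each line. p38δ, its product, is a p38 form found mainly in epithelial and some immune cells. MAPK13 had 57.2 CPM in shCtrl against 99.4, 106 and 98.8 CPM in the lines with ABL1 shRNA, ABL2 shRNA and the pair. Each knockdown library was higher, by 1.74-fold (95% counting interval 1.58 to 1.91), 1.85-fold (1.68 to 2.03) and 1.73-fold (1.57 to 1.90). These ratios share 1 shCtrl library and are not independent of each other. With 1 library a group there is no test, and the intervals (exact, conditional Poisson) cover counting error only. For scale, 6.07% of genes differed by over 1.5-fold between the 2 DMSO libraries and 8.00% between the 2 Ponatinib libraries.

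MAPK14, which lies 16573 bases before MAPK13 on chromosome 6 on the same strand, went the other way. It had 180 CPM in shCtrl against 158, 135 and 149 CPM in these lines, at ratios of 0.879, 0.749 (0.701 to 0.799) and 0.827. MAPK11 had 8.35, 6.32, 4.85 and 6.91 CPM in the same order, and its interval excluded equality for ABL2 shRNA alone (ratio 0.581, 0.414 to 0.809). As a share of the summed level of the 3 p38 genes per kb, MAPK13 stood at 16.4% in shCtrl and at 28.2, 33.0 and 29.1% in the knockdown libraries, while the sum stayed between 50.6 and 55.8 CPM per kb. The sum leaves out MAPK12, whose log2 ratios were -0.34, -0.12 and -0.27 in the ABL1, ABL2 and double lines, so these are not shares of all p38 transcripts. With DMSO the MAPK13 share was 13.2 and 13.2% and with Ponatinib 10.2 and 9.74%.

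**Figure D3:**
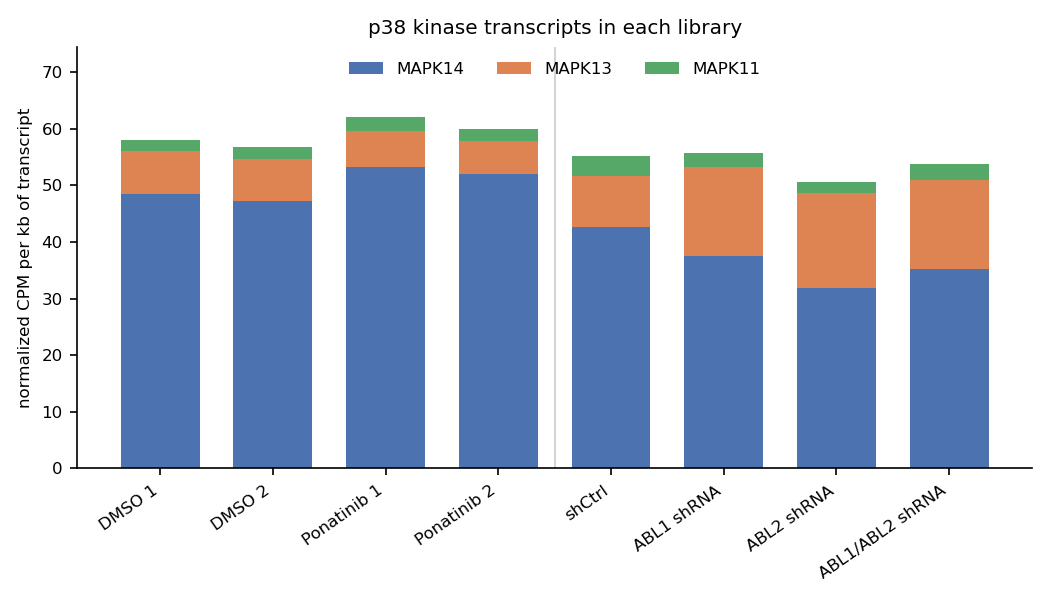
Stacked bars of MAPK14, MAPK13 and MAPK11 in normalized CPM per kb of MANE Select transcript, 1 bar per library, without error bars since each bar is a single library. The total is 50.6 to 62.1 in all libraries, and the MAPK13 segment is tallest with ABL1, ABL2 or both shRNAs (15.6 to 16.7 CPM per kb, against 9.06 in shCtrl).

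The p38-activating kinases lay nearer to their control in the knockdowns than with the drug. MAP2K6 had 2.72 CPM in shCtrl and 1.70, 3.42 and 2.47 CPM in the ABL1, ABL2 and double lines, from 22 to 43 counts. All 3 intervals included equality (ratios 0.623, 0.343 to 1.11, then 1.25, 0.772 to 2.06, and 0.905, 0.530 to 1.55), so no difference was detectable at this depth. The intervals cover counting error in 1 library each. The shRNAs lowered ABL1 and ABL2 only in part, and stable lines differ from a 6 h treatment. Whether ABL loss has a part in the MAP2K6 difference with Ponatinib was not tested. MAP2K3 had 83.3 CPM in shCtrl. The ABL1 line had 107 CPM (ratio 1.28, 1.18 to 1.40), the ABL2 line 70.8 CPM (0.850, 0.775 to 0.932) and the double line 90.2 CPM (1.08, 0.992 to 1.18). It was thus higher with one shRNA and lower with the other.

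Among the ERK and JNK activators, the ABL1 shRNA line was lower than shCtrl in all. MAP2K2 had 248 CPM in shCtrl, and 148 CPM in the ABL1 line (ratio 0.597, 0.563 to 0.633), 225 CPM in the ABL2 line (0.908, 0.861 to 0.957) and 194 CPM in the double line (0.784, 0.742 to 0.828). MAP2K4 had 60.4, 39.9, 58.2 and 38.1 CPM in the same order, lower with ABL1 shRNA (0.660, 0.588 to 0.741) and with both (0.631, 0.559 to 0.711), and near shCtrl with ABL2 shRNA (0.964, 0.867 to 1.07). Of these genes only MAP2K1 was higher with ABL2 shRNA, at 99.3 CPM against 76.2 CPM in shCtrl (1.30, 1.19 to 1.42), and it had 63.2 CPM with ABL1 shRNA and 74.5 CPM with both. MAP2K7 (ratios 0.796, 0.726 and 0.828) and MAP2K5 (0.589, 0.738 and 0.717) were lower in all 3 lines.

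None of the 10 genes passed 2-fold in any knockdown, where 9.11, 8.03 and 8.14% of 16172 genes did for the ABL1, ABL2 and double lines. A limit of 1.5-fold, added after the data were seen, was passed by 5 genes in the ABL1 line (MAPK13 higher, MAP2K2, MAP2K4, MAP2K5 and MAP2K6 lower), where 12.5% of all genes passed it higher and 11.6% lower. In the ABL2 line it was passed by 2 genes, MAPK13 higher and MAPK11 lower, against 11.8 and 8.47% of all genes. In the double line 2 genes passed it, MAPK13 higher and MAP2K4 lower, against 12.1 and 9.7%. The median log2 ratio of the 10 was -0.37, -0.19 and -0.27, beside medians of all genes of 0.0038, -0.0062 and 0.00030. Set directly against each other, the ABL1 shRNA line was higher than the ABL2 shRNA line in MAP2K3 (1.51-fold, 1.39 to 1.64) and MAPK14 (1.17-fold, 1.10 to 1.25) and lower in MAP2K1 (0.636, 0.582 to 0.696), MAP2K2 (0.658, 0.620 to 0.697), MAP2K4 (0.685, 0.611 to 0.768) and MAP2K6 (0.496, 0.283 to 0.848), and for MAPK13 (0.940, 0.870 to 1.02), MAP2K5, MAP2K7 and MAPK11 the interval included equality.

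**Figure D4:**
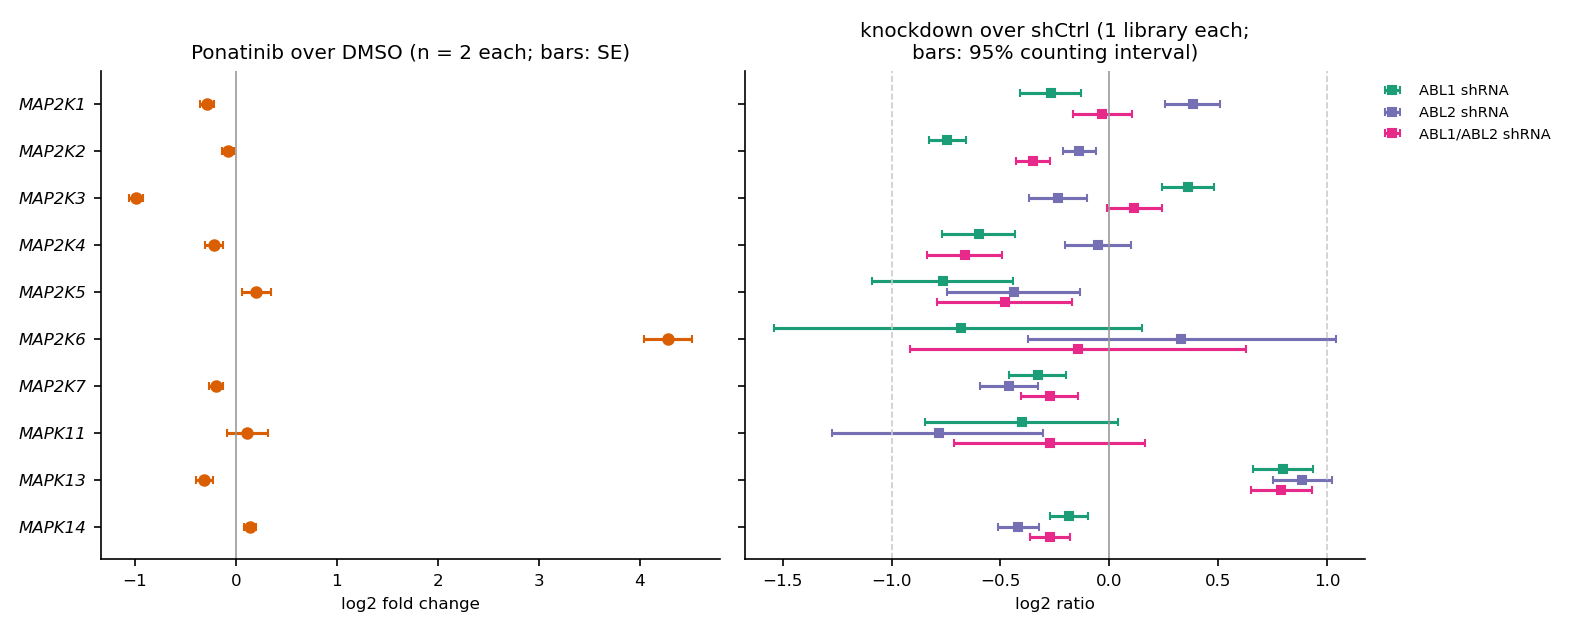
Log2 differences of the 10 genes, for Ponatinib over DMSO on the left (points with SE, n = 2 each) and for each knockdown over the same shCtrl library on the right (squares with 95% counting intervals, 1 library each; dashed lines mark 2-fold); the horizontal scales differ. MAP2K6 is at 4.28 on the left while its intervals on the right include 0, and MAPK13 is below 0 on the left (-0.31) and above 0 in all knockdowns (0.79 to 0.89).

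Genes around these kinases were taken from a list of 68 (upstream kinases, other MAP kinases, scaffolds, p38-activated kinases, transcription factors and phosphatases), of which 62 were tested with Ponatinib. At an adjusted p under 0.05 (edgeR), 18 rose (background 15%), 10 fell (background 15.7%) and 34 did not pass, with a median log2 fold change of 0.07. With library totals in place of TMM 23 rose and 5 fell, but with DESeq2's Wald test only 10 rose and 3 fell. All genes called numbered 2820 with that test, against 4917 with edgeR, so the counts depend on the test. Of the 62, 6 were also past 2-fold, against 4.83% of all genes tested. Among 20 upstream kinases 4 rose and 2 fell. The one past 2-fold was MAP3K8 (TPL2), a kinase that phosphorylates MAP2K1 and other MAP2Ks, which rose from 4.85 ± 1.14 to 11.4 ± 0.801 CPM (SD, n = 2; 2.31-fold, adjusted p = 0.00020 by edgeR). Of 9 scaffolds 5 rose and 2 fell, led by KSR1, a scaffold that brings RAF and MEK together, which rose from 4.42 ± 0.246 to 11.8 ± 0.424 CPM (2.65-fold, adjusted p = 2.4e-05 by edgeR).

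Downstream of p38, 7 kinases were measured. MKNK2, a kinase that phosphorylates the translation factor eIF4E, rose from 104 ± 8.04 to 238 ± 14.1 CPM (2.29-fold, adjusted p = 1.0e-08 by edgeR), 2 of the 7 rose in all and 3 fell. Of 12 transcription factors 3 rose and 2 fell. DDIT3 (CHOP), a stress-induced factor phosphorylated by p38, rose from 22.2 ± 1.88 to 69.8 ± 10.8 CPM (3.15-fold, adjusted p = 3.1e-08 by edgeR). Of 6 other MAP kinases 1 rose and none fell. Of 8 phosphatases 3 rose and 1 fell. The one that fell was DUSP4, a nuclear phosphatase of ERK, JNK and p38, from 631 ± 19.7 to 307 ± 3.48 CPM (2.05-fold lower, adjusted p = 5.4e-09 by edgeR). DUSP8 rose from 0.770 ± 0.660 to 2.23 ± 0.336 CPM (adjusted p = 0.026 by edgeR), at a log2 fold change of 1.44 that was 2.81 without DMSO replicate 1 and 0.82 without DMSO replicate 2, where it was below 2-fold and no longer called (adjusted p = 0.25).

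In the knockdowns, which share shCtrl, 64 genes of the list were measured. Past 2-fold were 1 higher and 2 lower in the ABL1 line, 2 lower in the ABL2 line and 3 lower in the double line, beside the 9.11, 8.03 and 8.14% of all genes. The named genes had the following levels in shCtrl and the ABL1, ABL2 and double lines. MKNK2 had 214, 458, 202 and 372 CPM, and DUSP4, lower with Ponatinib, had 738, 1169, 994 and 1161 CPM. DUSP8, higher with Ponatinib, had 5.62, 0.694, 1.51 and 1.40 CPM, from 64, 9, 19 and 17 counts. MKNK2 was thus higher in the lines with ABL1 shRNA, while DUSP4 was higher and DUSP8 lower than shCtrl in every ABL line. MAP3K8 had 16.2, 16.7, 14.9 and 11.6 CPM, KSR1 16.3, 18.8, 21.9 and 22.3 CPM, and DDIT3 20.4, 26.5, 20.3 and 21.9 CPM, and none of these 3 passed 2-fold.

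**Figure D5:**
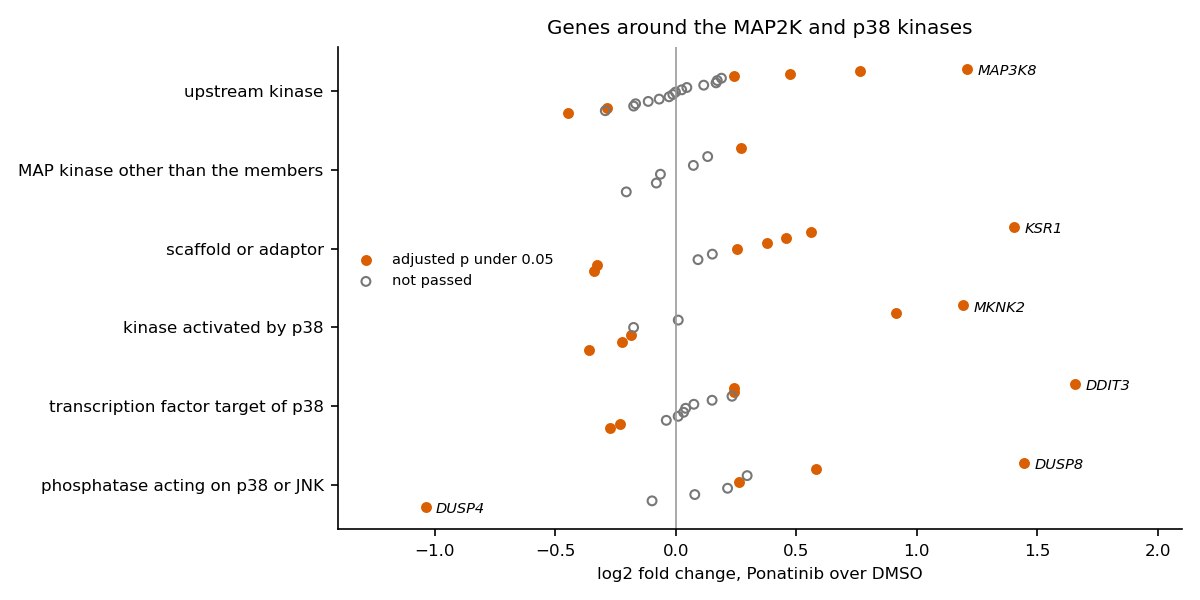
Log2 fold change of Ponatinib over DMSO for the 62 tested genes around the MAP2K and p38 kinases, by role (rows; vertical spread within a row only separates the points). Filled points passed an adjusted p of 0.05 in edgeR, and names mark the 6 also past 2-fold, DDIT3 (1.66), DUSP8 (1.44), KSR1 (1.40), MAP3K8 (1.21) and MKNK2 (1.19) higher and DUSP4 (-1.04) lower.

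The genes next to MAP2K6 and MAP2K3 were read as well, within 250 kb. Of all genes tested, 30.7% were called at an adjusted p under 0.05 (edgeR), and nothing is read from the number of neighbours called. Around MAP2K6 the 2 genes tested, the transporter genes ABCA5 and ABCA10, were both called, ABCA5 with a log2 fold change of 0.65 (SE 0.12, adjusted p = 0.0010 by edgeR) and ABCA10 with 1.10 (SE 0.354, adjusted p = 0.028), the latter call being lost without DMSO replicate 1 (adjusted p = 0.24), DMSO replicate 2 (0.068) or Ponatinib replicate 1 (0.14). Around MAP2K3, NATD1 rose (0.74, adjusted p = 0.0073), TMEM11 (-0.43, adjusted p = 0.0047) and DHRS7B (-0.44, adjusted p = 0.013) fell, and 3 others did not pass.

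The genes most like MAP2K6 across the 8 libraries (Pearson r of log2 CPM, centred within each experiment, over 13830 genes) were ZCCHC8, LURAP1L, PHF21A, ZSCAN2 and CYB561D1, with r from 0.993 to 0.996. Those most like MAP2K3 were LTV1, MCMBP, SLC5A6, TOMM5 and YRDC, with r from 0.991 to 0.997. Between MAP2K6 and MAP2K3 r was -0.95. These values describe 8 points that share libraries and depth and are dominated by the step between DMSO and Ponatinib.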

How the data were processed

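RNA from 8 LM2 samples was sequenced after NEBNext Ultra library preparation. The authors mapped the reads to hg38 with TopHat and counted them per gene with HTSeq 0.6.0 (submitters' processing notes), and the deposited values are raw read counts; annotation release and strand setting are not given in the sources used here. Summary rows at the end of the shRNA files (15.7 to 16.0% of their entries) were left out. In 2 shRNA files (shCtrl, ABL1) the column header carries the name of the other one. Samples were used as labelled, and ABL1 and ABL2 levels went with the labels.

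Symbols were matched by Ensembl ID (54836 of 58688 genes). Ponatinib was compared with DMSO in its 4 samples with edgeR 4.0.16 (R 4.3.3; quasi-likelihood test, TMM, filterByExpr, prior count 0.125), fitted on all genes, with Benjamini-Hochberg adjustment; a standard error is the log2 fold change divided by the root of F. Knockdowns were ratios of TMM-normalized CPM within the 4 shRNA libraries with exact intervals. Fits were tested on simulated data. DESeq2 1.42.0, other scalings and filters and left-out libraries were alternatives. Nothing states that replicates were separate cultures, so p-values measure the spread between these libraries. Replicates differed beyond counting noise (chi-square per gene 1.44 for DMSO, 3.12 for Ponatinib), so none held the counts of another sample. This cannot tell technical repeats of one library from separate libraries. The genes and lists were chosen with earlier results of these data known. Named were all 10 genes, list genes past 2-fold and an adjusted p of 0.05, and the 5 genes most like MAP2K6 and MAP2K3 with a mean of at least 1 CPM; ABCA5, ABCA10, NATD1, TMEM11 and DHRS7B were named after their values were seen. Lengths came from GENCODE v44 and promoters from RefSeq.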

Additional observations from a re-analysis of the deposited data

How the results depend on the processing

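Among the 10 genes, the 6 named list genes, ABCA5 and ABCA10, no called value changed direction under the alternatives run; the other called genes were not followed one by one. Of 299 recomputed values of the 10 genes, 295 moved by less than their error. The 10 genes called with Ponatinib numbered 2 to 7 when 1 library was left out (2 without DMSO replicate 2, 7 without Ponatinib replicate 2) and 3 with DESeq2's Wald test. Those past 2-fold numbered 1 to 2 when 1 library was left out, 2 with all 8 samples in one fit, where MAP2K3 joined, and 0 with at least 10 counts required in every sample, which removes MAP2K6 (9 counts in DMSO replicate 1). Genes of the surrounding list called numbered 13 with DESeq2's Wald test and 14 to 30 when 1 library was left out (15 without DMSO replicate 1, 14 without DMSO replicate 2); all genes called fell from 4917 to 2820 with DESeq2, to 2800 without DMSO replicate 1 and to 3242 without DMSO replicate 2. The cause of these differences was not tested.

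With the replicate number as a block, 4 of the 10 genes, 27 list genes and 4984 of all genes were called, and no call among the 10 changed. Same-numbered samples did not deviate together (r = -0.0199 over 9421 genes). With 2 samples a group, this cannot tell whether same-numbered samples were prepared together. In the knockdowns, a 1.5-fold limit gave 5, 2 and 2 genes, and MAP2K1 with both shRNAs changed sign with library totals only (log2 ratio -0.032 to 0.014). With the short MAP2K6 transcript, its mean share of the summed MAP2K3 and MAP2K6 level went from 0.148 to 1.30% with DMSO. With Ponatinib it went from 5.48 to 33.9%. This sum leaves out MAP2K4, which can also activate p38. Depth limits MAP2K6 and MAPK11, and 1 library a group leaves the knockdown ratios without replicate error.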
